A study of Mus musculus with 128 samples.

Results

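The pentose phosphate pathway is represented here by 8 genes of the 35275 in the deposited liver count table. They were chosen by name: G6pdx, H6pd, Pgls and Pgd for the oxidative branch, and Rpe, Rpia, Tkt and Taldo1 for the non-oxidative branch. Each matched 1 row of the table, and all 8 passed the filter on low counts that left 16886 genes for testing. Their values were followed through liver libraries in 26 groups of strain, drink and time, of which 24 groups held 5 libraries and 2 groups, BALB/c at 12 h on glucose or on fructose, held 4. All mice were wild-type males of strain C57BL6/J or BALB/c, labelled as 8 weeks old, and all were trained for 1 week to a daily meal of regular chow that started at 7 pm and drew 10% of its calories from fat and 64.5% from carbohydrate. After a 21 h fast, and 3 h without water, they received chow at 7 pm with plain water, 20% glucose, 20% sucrose or 20% fructose to drink. Livers were taken at 7 pm before the meal (0 h) or 3, 6 or 12 h after feeding began, so that clock time and time since feeding cannot be told apart. Only the water groups have a 0 h point, and the sources used here do not give the intake of chow or drink.

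The pathway starts from glucose-6-phosphate, the first product of glucose in the cell. Its oxidative branch makes NADPH, which liver uses to build fatty acids and to keep glutathione reduced, and ends in ribulose-5-phosphate. Its non-oxidative branch turns that pentose into ribose-5-phosphate for nucleotides, or passes carbon back to glycolysis, and its steps are reversible. G6pdx encodes glucose-6-phosphate dehydrogenase, the committed and NADPH-making first step in the cytosol. H6pd encodes a separate enzyme of the endoplasmic reticulum lumen, which carries out the first steps there and supplies NADPH to the steroid-activating enzyme 11-beta-hydroxysteroid dehydrogenase. Pgls encodes 6-phosphogluconolactonase, and Pgd encodes 6-phosphogluconate dehydrogenase, the other NADPH-making step of the cytosol. In the non-oxidative branch Rpe encodes the epimerase and Rpia the isomerase that act on ribulose-5-phosphate, while Tkt (transketolase) and Taldo1 (transaldolase) move carbon units between sugar phosphates.

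Upstream sequences are shown for the 3 genes whose levels differed most clearly between groups, 1 from each branch that rose together (Pgd and Rpia) and H6pd, which moved the other way early after feeding. Each is the 250 bases before the RefSeq start in GRCm38.p6, read 5′ to 3′ on the minus strand on which all 3 genes lie. Capitals mark 4 motifs on either strand. The GC box was searched as GGGCGG. The CCAAT box was searched as its 5 letters. The D box, the element of clock output factors, was searched as TTATGTAA. The ROR element was searched as AGGTCA.
Pgd, chr4:149166706-149166955: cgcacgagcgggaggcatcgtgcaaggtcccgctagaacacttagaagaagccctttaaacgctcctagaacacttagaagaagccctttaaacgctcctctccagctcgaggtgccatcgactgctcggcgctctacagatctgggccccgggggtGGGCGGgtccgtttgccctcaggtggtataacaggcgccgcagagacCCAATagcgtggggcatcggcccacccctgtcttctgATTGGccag
Rpia, chr6:70792176-70792425: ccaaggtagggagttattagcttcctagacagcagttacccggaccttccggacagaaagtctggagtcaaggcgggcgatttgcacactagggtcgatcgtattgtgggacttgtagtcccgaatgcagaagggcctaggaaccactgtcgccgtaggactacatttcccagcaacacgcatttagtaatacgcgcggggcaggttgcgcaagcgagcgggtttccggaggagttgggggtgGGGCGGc
H6pd, chr4:150003237-150003486: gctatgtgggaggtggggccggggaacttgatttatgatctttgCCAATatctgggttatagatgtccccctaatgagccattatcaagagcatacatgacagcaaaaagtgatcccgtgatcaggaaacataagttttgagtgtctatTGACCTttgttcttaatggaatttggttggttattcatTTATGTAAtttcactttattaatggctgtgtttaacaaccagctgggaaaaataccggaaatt

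Pgd carried a GC box 93 bases before the start and CCAAT boxes at 46 and 9 bases before it. Rpia carried only a GC box, 7 bases before its start. The H6pd window held a CCAAT box, a ROR element and a D box at 206, 101 and 63 bases before the start. That RefSeq start lies 5787 bases inside the outer end of H6pd in the deposited table, against 66 bases for Pgd and 57 for Rpia, and the counts do not say which start was used. Over windows of 300 bases that also take in the first 50 bases after the start, a GC box was found for 7 of the 8 genes, all but H6pd, and in 35.7% of 32851 RefSeq promoters. A CCAAT box was found for 4 of the 8 (37.4% of all), a D box only for H6pd (0.9%), and a ROR element only for H6pd (16.3%). The antioxidant response core TGACNNNGC was found for G6pdx and for a second, downstream start of Pgd (12.4%). The carbohydrate response core CACGNG, left in lower case above, was found for 4 of the 8 (27.5%). The E-box CACGTG, an instance of that core, was found for 0 of the 8 (7.2%). The sterol element core TCACNCCAC was found for 0 of the 8 (1.2%). The TATA box TATAAA was found for 0 of the 8 (13.6%). The FoxO element TGTTTAC was found for 0 of the 8 (3.6%). No match says only that these letters are not in these windows.

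Library totals lay between 18541545 and 43118895 counts. That each library is a separate mouse is read from the labels and not stated outright, and p-values measure the spread between libraries. In bulk liver RNA, fewer cells of a type and less RNA per cell cannot be told apart. The summed level of 6 hepatocyte markers was 47100 to 132000 CPM (counts scaled to library size) over all libraries, with 0 of them absent from any library. Transcripts of skeletal muscle moved with time: on water the summed level of 10 markers had medians of 196, 56.9, 199 and 1.94 CPM at 0, 3, 6 and 12 h, and its part in the results was not tested. Single libraries held up to 1560 CPM of kidney markers, 600 of adrenal markers and 1500 of exocrine pancreas markers, and the part of these in the results was not tested. By 200 time-dependent genes, 2 libraries were at odds with their labels, lying nearer to another time than to their own. C57BL6/J water 0 h replicate 2 lay nearest to 3 h, with a root mean square log2 difference of 0.361, against 1.596 from 0 h. BALB/c fructose 6 h replicate 4 lay nearest to 12 h by a small margin, at 1.063 against 1.14 from 6 h. Results that change without this pair are given both ways. BALB/c water 0 h replicate 1 (1.166), BALB/c fructose 3 h replicate 4 (1.036) and BALB/c water 12 h replicate 1 (0.969) lay nearest to their own time but far from it. All remaining libraries lay within 0.717 of their own time. Of those far libraries, only BALB/c water 0 h replicate 1 was left out in a fit of its own. A letter a of unstated meaning closes 34 library names, and values over the 94 libraries without this name suffix are given beside the results they change. On water Pgls lay between 54.4 and 85.5 CPM in libraries with the suffix and between 49.4 and 187 in those without it. Rpe lay between 20.1 and 30.0 CPM with the suffix and between 7.36 and 28.0 without it. The part of the suffix in the spread of these genes was not tested.

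Compared per length of transcript, the 8 genes spanned a wide range of levels. Median FPKM (fragments per kilobase of transcript, scaled to depth) over all libraries was 113.7 for Taldo1, 52.7 for H6pd, 47.72 for Tkt, 35.3 for Pgls, 12.8 for Pgd, 7.65 for Rpe, 2.937 for Rpia and 1.773 for G6pdx. Taldo1 stood above H6pd in 122 libraries, Tkt above Pgls in 111, Pgls above Pgd in 127, Pgd above Rpe in 114 and Rpe above Rpia in 121. H6pd and Tkt were not ordered beyond their spread, with H6pd the higher in 73 libraries. Rpia stood above G6pdx in 105 libraries, and the lowest group mean of Rpia was that of C57BL6/J on glucose at 12 h, at 5.07 ± 1.49 CPM (SD, n = 5). The exceptions lay mostly at 12 h in C57BL6/J, where G6pdx had the higher FPKM in 14 of 20 libraries, against 2 of 18 in BALB/c at 12 h and 0 of 20 in either strain at 3 h. By median over all libraries the cytosolic gene of the committed step, G6pdx, was the lowest of the 8, while H6pd, its counterpart of the endoplasmic reticulum, lay near Tkt. G6pdx rested on 46 to 508 counts per library, with a median of 115, so its values are the least precise. FPKM used the deposited length of each gene, at 4745 bases for H6pd, 3225 for Tkt and 2688 for Pgls. The exons of all annotated transcripts joined (exon union) covered 5236, 7355 and 3770 bases. The order of these 3 genes therefore depends on the length used. Deposited lengths of Taldo1, Pgd and Rpe were 1229, 3644 and 2724 bases, against exon unions of 2171, 6447 and 3113. On exon union length the leads of Taldo1 over H6pd and of Pgd over Rpe would be smaller.

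**Figure D1:**
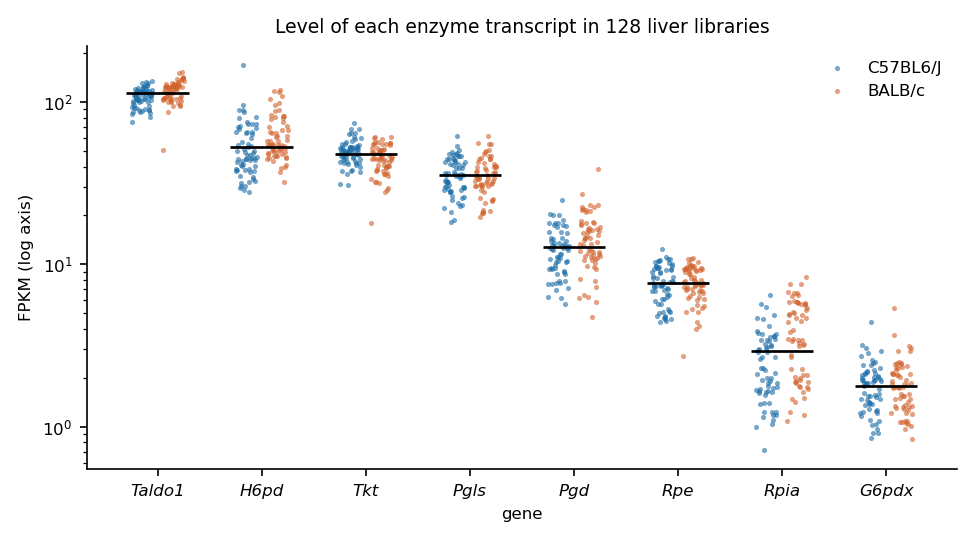
Deposited FPKM of each gene (log axis) in all libraries, one point per library, with C57BL6/J in blue and BALB/c in orange and the median as a black line. Medians run from 113.7 for Taldo1 to 1.773 for G6pdx, and the clouds of H6pd and Tkt overlap.

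Exons of 3 of the genes overlap those of a neighbour by more than 1 base, and Tkt shares 1 exonic base with Mir3076 on the same strand. G6pdx (ENSMUSG00000031400, chromosome X, 74409483 to 74429194, minus strand) shares 418 exonic bases, 13.6% of its exon union, with Ikbkg on the opposite strand, which had a median of 2479 counts. Rpe (ENSMUSG00000026005, chromosome 1, 66700831 to 66719805, plus strand) shares 558 bases, 17.9%, with Kansl1l on the opposite strand. Pgls (ENSMUSG00000031807, chromosome 8, 71592176 to 71601092, plus strand) shares 776 bases, 20.6%, with Fam129c on the same strand. The sources used here do not say whether counting used strand, so counts of these genes are uncertain to that extent. The other genes are Pgd (ENSMUSG00000028961, chromosome 4, 149149991 to 149166771, minus strand), H6pd (ENSMUSG00000028980, chromosome 4, 149979475 to 150009023, minus strand), Rpia (ENSMUSG00000053604, chromosome 6, 70765720 to 70792232, minus strand), Tkt (ENSMUSG00000021957, chromosome 14, 30548359 to 30574722, plus strand) and Taldo1 (ENSMUSG00000025503, chromosome 7, 141392199 to 141402968, plus strand).

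On chow and water the genes of the oxidative branch differed from 0 h in unlike ways, with Pgd higher at 3, 6 and 12 h and H6pd lower at 3 h and higher at 12 h. In C57BL6/J the Pgd level before the meal was 25.1, 27.9, 25.0, 24.2 and 22.3 CPM in replicates 1 to 5, and at 6 h it was 39.4, 52.3, 40.7, 50.7 and 41.8 CPM. In BALB/c it was 22.2, 23.9, 23.3, 19.6 and 22.8 CPM before the meal and 56.3, 51.7, 57.4, 67.0 and 53.6 CPM at 6 h. All 10 libraries at 6 h lay above all 10 at 0 h. As the mean of both strains, Pgd differed from 0 h by log2 fold changes of 0.52 ± 0.14 (standard error), 1.10 ± 0.14 and 0.74 ± 0.14 at 3, 6 and 12 h (edgeR, with adjusted p = 0.00221, 2.12e-10 and 2.04e-05), higher in 10 of 10 libraries each time. Its increase at 6 h was 2.15-fold, the largest of the 8 genes in the 3 comparisons with 0 h. Within the libraries without the name suffix these values were 0.60, 1.11 and 0.73 (adjusted p = 0.00547, 1.51e-07 and 0.00128).

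H6pd, by contrast, was lower at 3 h. In C57BL6/J it stood at 342, 142, 240, 270 and 246 CPM in replicates 1 to 5 before the meal and at 185, 164, 142, 132 and 175 CPM at 3 h. In BALB/c it stood at 270, 260, 311, 272 and 412 CPM before the meal and at 199, 287, 217, 177 and 250 CPM at 3 h. The groups overlapped in both strains, in C57BL6/J through replicate 2 at 0 h, the library nearest to the 3 h libraries by its time-dependent genes. The log2 fold change was -0.53 ± 0.15 at 3 h (edgeR adjusted p = 0.00338, lower in 10 of 10 libraries), and -0.62 (adjusted p = 0.000279) without the 2 libraries at odds with their labels. At 6 h it was -0.36 ± 0.15 and did not pass the test (edgeR adjusted p = 0.0516), while without those 2 libraries it was -0.46 (0.00883) and passed, as it did by DESeq2 (0.0348) and with RLE scaling (0.0394). At 12 h H6pd was higher than at 0 h by 0.44 ± 0.15 (edgeR adjusted p = 0.0257, 9 of 10 libraries), and this was not called without those 2 libraries (0.37, 0.0595) or over the libraries without the name suffix (0.26, 0.385), nor without replicate 2 or 3 of every group (0.399 and 0.129).

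The remaining oxidative genes moved less. G6pdx had means of 3.54 ± 0.78 CPM (SD, n = 5) in C57BL6/J and 3.20 ± 0.31 in BALB/c at 0 h, and of 5.32 ± 2.43 and 4.52 ± 1.29 at 6 h. It was higher at 6 h by 0.54 ± 0.19 (edgeR adjusted p = 0.02, 7 of 10 libraries), and not called at 3 h (0.44, adjusted p = 0.0762) or 12 h (0.28, 0.337). The call at 6 h was lost without replicate 1, 2 or 4 of every group (adjusted p = 0.053, 0.176 and 0.129) and over the libraries without the name suffix (0.40, 0.182). At 3 h G6pdx passed once the 2 libraries at odds with their labels were left out (0.49, 0.0447). Pgls ranged from 49.4 to 187 CPM over the 40 water libraries and was not called at any time, at -0.22 ± 0.18, -0.10 ± 0.18 and -0.28 ± 0.18 (edgeR adjusted p = 0.399, 0.72 and 0.308). The 95% intervals of the 3 Pgls differences ran from -0.63 to 0.24.

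In the non-oxidative branch Rpia was the gene with the largest change. On water in C57BL6/J it stood at 3.97, 9.57, 5.62, 5.51 and 4.27 CPM in replicates 1 to 5 before the meal and at 6.36, 8.20, 8.52, 10.7 and 6.76 CPM at 3 h. In BALB/c it stood at 3.92, 5.46, 7.15, 8.22 and 4.56 CPM before the meal and at 12.0, 11.5, 16.7, 20.9 and 11.5 CPM at 3 h. The BALB/c groups did not overlap, while the C57BL6/J groups overlapped through replicate 2 at 0 h. The log2 fold change was 0.89 ± 0.16 at 3 h and 0.89 ± 0.16 at 6 h (edgeR adjusted p = 4.37e-06 and 3.9e-06, higher in 10 of 10 libraries each time), or 1.01 and 1.00 with the 2 libraries at odds with their labels left out (1.32e-07 and 1.36e-07). Over the libraries without the name suffix these were 1.06 and 1.01 (1e-05 and 1.3e-05). At 12 h the mean was 5.30 CPM in C57BL6/J and 5.64 in BALB/c, against 5.79 and 5.86 at 0 h, and the difference was -0.10 ± 0.16 (edgeR adjusted p = 0.764, interval -0.41 to 0.22), a value whose sign changed between processing settings.

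Rpe, Tkt and Taldo1 changed by smaller amounts and passed the test only at 6 h. Rpe was higher at 6 h by 0.56 ± 0.18 (edgeR adjusted p = 0.0103, 9 of 10 libraries), Tkt by 0.30 ± 0.12 (0.0388, 9 of 10) and Taldo1 by 0.31 ± 0.10 (0.00986, 10 of 10). All 3 had their lowest value of the series in 1 library, BALB/c water 0 h replicate 1, at 7.36, 57.3 and 61.5 CPM. In the other BALB/c libraries at 0 h Rpe lay between 12.2 and 20.1 CPM, Tkt between 104 and 167, and Taldo1 between 126 and 164. Without that library the difference at 6 h was 0.48 for Rpe (edgeR adjusted p = 0.0384), 0.21 for Tkt (0.157) and 0.22 for Taldo1 (0.0591), so the calls of Tkt and Taldo1 rest on it. With the 2 libraries at odds with their labels left out, Tkt was not called at 6 h (0.26, 0.0787) and Rpe was called at 3 h (0.49, 0.0303, against 0.42 and 0.074 with them). Tkt was also not called without replicate 1, 2, 4 or 5 of every group, and Taldo1 not without replicate 1 or 5. Over the libraries without the name suffix Rpe kept its call at 6 h (0.66, 0.00453) and Tkt and Taldo1 did not (0.0671 and 0.0631).

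**Figure D2:**
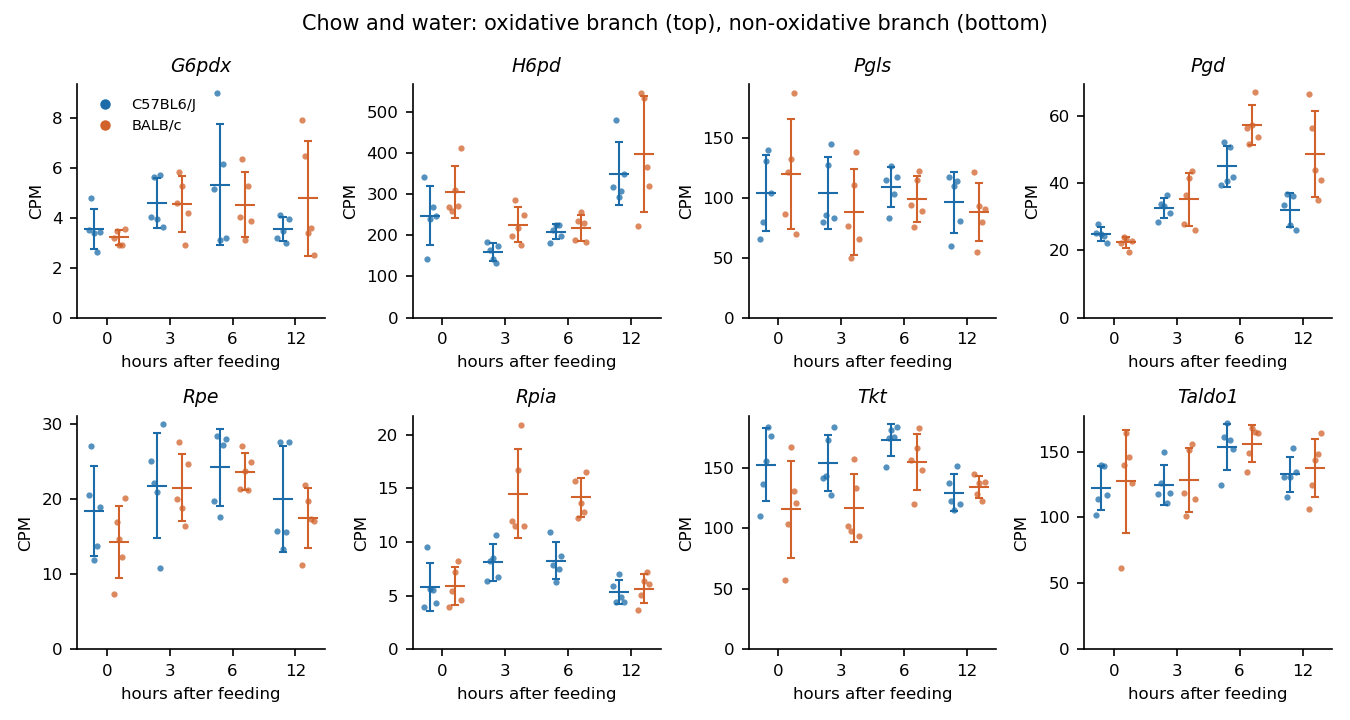
CPM of the 8 genes on water at 0, 3, 6 and 12 h, one point per library with the group mean and SD (n = 5), C57BL6/J in blue and BALB/c in orange. Pgd rises to means of 45.0 and 57.2 CPM at 6 h, Rpia is higher at 3 and 6 h than at 0 and 12 h, and H6pd dips at 3 h.

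Counted over the pathway, 3 of 8 genes were called at 3 h (Pgd and Rpia higher, H6pd lower) where 25.4% of all genes tested were called. At 6 h 6 of 8 were called, all higher, where 28.8% of all genes were called, and without BALB/c water 0 h replicate 1 there were 4 higher (G6pdx, Pgd, Rpe and Rpia) and 1 lower (H6pd, at -0.39, adjusted p = 0.0497). At 12 h 2 of 8 were called, both higher, where 17.6% were called. The 3 comparisons share the 0 h libraries. By branch, 2 of 4 oxidative and 4 of 4 non-oxidative genes were higher at 6 h, with median log2 fold changes of 0.22 and 0.43, against -0.002 over all genes. At 3 h 1 oxidative gene was higher and 1 lower, and 1 non-oxidative gene was higher, with medians of 0.11 and 0.22. At 12 h 2 of 4 oxidative and 0 of 4 non-oxidative genes were higher, with medians of 0.36 and 0.05.

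From 6 to 12 h 4 of 8 genes were called, where 29.1% of all genes were called. Rpia had a log2 fold change of -0.98 ± 0.16 (edgeR adjusted p = 4.56e-07, lower in 10 of 10 libraries), Pgd of -0.36 ± 0.14 (0.0357, 9 of 10) and Tkt of -0.31 ± 0.12 (0.0303, 10 of 10), while H6pd was higher by 0.80 ± 0.15 (7.24e-06, 10 of 10). In both strains the mean of Pgd at 12 h lay between those at 0 h and 6 h. The calls of Pgd and Tkt were lost over the libraries without the name suffix (0.115 and 0.107) and without replicate 2, 3, 4 or 5 of every group, whereas over the libraries without the name suffix Rpia (-0.92, 0.000223) and H6pd (0.65, 0.00345) kept theirs and Rpe was called (-0.56, 0.0311, against -0.36 and 0.121). The summed muscle markers fell between the same times, from a median of 199 to 1.94 CPM on water, and their part in these differences was not tested.

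Sugar in the drink went with higher Rpia at 3 h for each sugar and with higher Pgd for sucrose and fructose, compared with water, and no other gene of the pathway passed the test. Here 1 of 8 genes was called on glucose, 2 on sucrose and 2 on fructose. In C57BL6/J Pgd on water at 3 h stood at 28.6, 33.7, 33.3, 36.6 and 31.1 CPM in replicates 1 to 5. It stood at 69.6, 49.8, 45.1, 57.7 and 61.8 CPM on glucose, at 70.1, 69.4, 66.4, 57.6 and 49.3 CPM on sucrose, and at 34.5, 49.0, 42.9, 95.1 and 58.2 CPM on fructose. All glucose and sucrose libraries lay above all water libraries, while the fructose group overlapped it through replicate 1. In BALB/c Pgd stood at 27.9, 36.4, 41.6, 43.8 and 26.1 CPM on water and at 41.2, 48.8, 44.6, 42.5 and 40.3 CPM on glucose. It stood at 43.8, 51.4, 56.0, 65.3 and 56.0 CPM on sucrose and at 65.7, 42.4, 55.6, 39.7 and 47.3 CPM on fructose in that strain. The glucose and fructose groups overlapped the water group there, and the sucrose group lay just above it.

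As the mean of both strains, Pgd was higher on sucrose by 0.79 ± 0.14 (edgeR adjusted p = 8.11e-05, 10 of 10 libraries) and on fructose by 0.64 ± 0.14 (0.000809, 10 of 10). On glucose Pgd was at 0.55 ± 0.14 with all 10 libraries above the water mean of their strain, but missed the threshold by edgeR (adjusted p = 0.0548) and passed it by DESeq2. Of 16886 genes 2.92% were called on sucrose, 6.71% on fructose and 0.190% on glucose at 3 h, and an adjusted p depends on how many other genes change. Over the libraries without the name suffix Pgd was at 0.80 on sucrose (0.0132) and 0.62 on fructose (0.0395). The 3 sugar comparisons share the water libraries.

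Rpia was the gene of the pathway called with each sugar at 3 h. In C57BL6/J it stood at 20.6, 13.8, 13.1, 15.2 and 17.4 CPM on glucose, at 15.2, 19.6, 21.5, 14.1 and 13.8 CPM on sucrose, and at 7.70, 12.9, 11.9, 24.8 and 15.1 CPM on fructose. The highest water library of that strain at 3 h, at 10.7 CPM, lay below all glucose and sucrose libraries and above 1 fructose library. In BALB/c it stood at 23.3, 22.1, 23.7, 16.6 and 20.7 CPM on glucose, at 14.3, 17.8, 19.7, 27.4 and 19.2 CPM on sucrose and at 17.4, 14.7, 20.3, 9.42 and 19.9 CPM on fructose, and all 3 groups overlapped the water group. The log2 fold change was 0.77 ± 0.16 on glucose (edgeR adjusted p = 0.00982, 10 of 10 libraries), 0.75 ± 0.16 on sucrose (0.00125, 9 of 10) and 0.51 ± 0.16 on fructose (0.0312, 8 of 10). Over the libraries without the name suffix the value on sucrose kept its call (0.77, 0.0415) and those on glucose (0.71, 0.281) and fructose (0.38, 0.401) did not. The glucose and fructose calls were also lost without replicate 1, 2, 3 or 5 of every group, with values of 0.62 to 0.81 on glucose and 0.40 to 0.52 on fructose. Summed muscle markers had medians of 56.9 CPM on water, 194 on glucose, 138 on sucrose and 52.4 on fructose at 3 h, and their part in these differences was not tested.

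The other 6 genes were not called with any sugar at 3 h. Tkt was at 0.20, 0.18 and 0.23 on glucose, sucrose and fructose (SE 0.12 each, edgeR adjusted p = 0.988, 0.538 and 0.293), and H6pd at -0.01, 0.22 and 0.27 (SE 0.15 each, adjusted p = 1, 0.579 and 0.331). G6pdx was at -0.08, 0.29 and 0.10 with intervals that together ran from -0.45 to 0.66. A change of G6pdx as large as that of Pgd on sucrose lay outside these intervals.

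**Figure D3:**
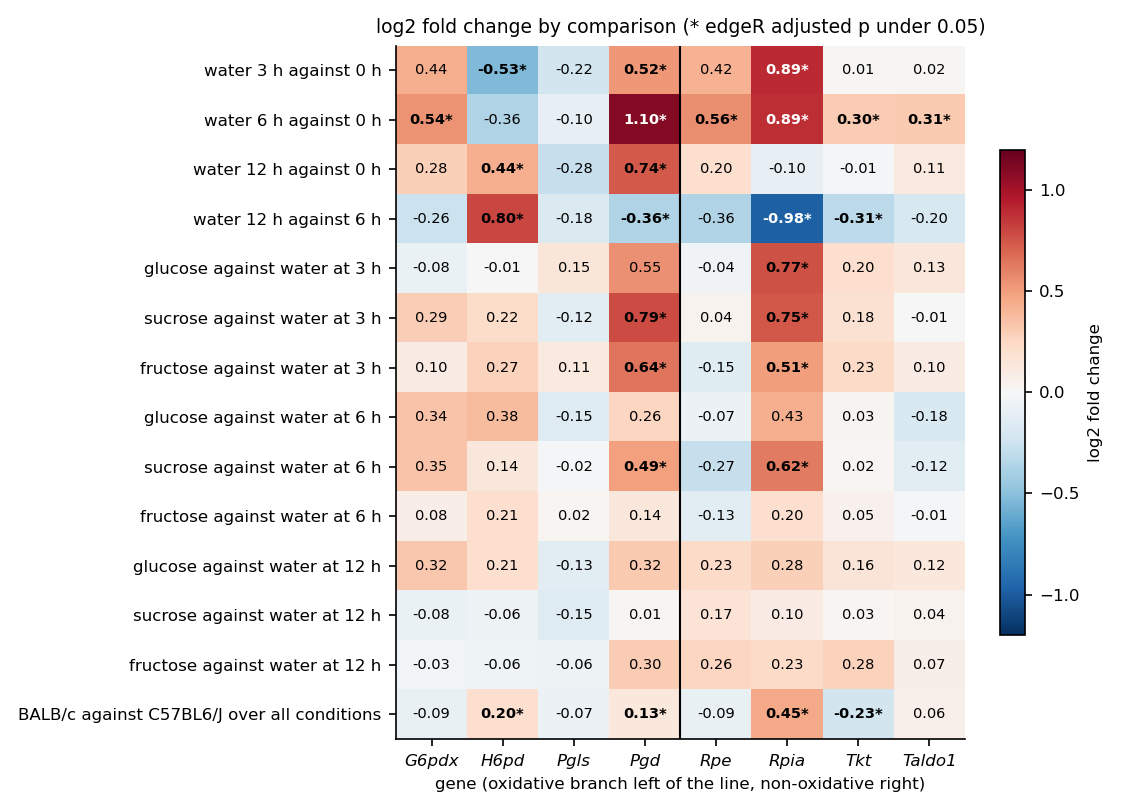
Log2 fold change of each gene (columns) in each comparison (rows), red for higher and blue for lower, with an asterisk and bold type where edgeR's adjusted p was under 0.05. Rows are means of both strains, except the last, which is BALB/c against C57BL6/J over all conditions. Pgd and Rpia carry the asterisks in the sugar rows, and 6 of 8 genes carry one at 6 h on water.

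At 6 h the difference from water was called with sucrose alone. There Pgd was higher by 0.49 ± 0.14 (edgeR adjusted p = 0.0499, 9 of 10 libraries) and Rpia by 0.62 ± 0.16 (0.0228, 9 of 10), where 1.14% of all genes were called. In BALB/c on sucrose Pgd stood at 85.2, 74.7, 81.0, 40.1 and 138 CPM in replicates 1 to 5 and Rpia at 23.7, 21.3, 22.5, 11.8 and 30.0 CPM. Replicate 4 of that group was the lowest for both genes and replicate 5 the highest of the whole series for both. Both calls were lost over the libraries without the name suffix (0.58, 0.094 for Pgd and 0.65, 0.084 for Rpia) and without replicate 2, 3 or 5 of every group, and that of Pgd also without replicate 1 (0.42, 0.147). On glucose (0.906% of all genes called) Pgd was at 0.26 ± 0.14 and Rpia at 0.43 ± 0.16 (edgeR adjusted p = 0.391 and 0.166), and on fructose (1.23% called) at 0.14 ± 0.14 and 0.20 ± 0.16 (0.789 and 0.688). No difference between sugars passed the test either.

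At 12 h 0 of 8 genes were called with any sugar by edgeR and 0 of 8 by DESeq2, over 24 tests of which 3 had an unadjusted p under 0.05, Pgd on glucose (0.32 ± 0.14), Pgd on fructose (0.30 ± 0.14) and Tkt on fructose (0.28 ± 0.12). Of all genes 0.0651% were called on glucose, 0.00592% on sucrose and 0.00592% on fructose. The log2 fold changes of the 8 genes ran from -0.15 to 0.32 and their 95% intervals from -0.50 to 0.70. On glucose the values of Pgd, G6pdx and Rpia differed in sign between the strains. In C57BL6/J Pgd was at 0.70 ± 0.20 and G6pdx at 0.78 ± 0.26, higher in 5 of 5 libraries with groups that did not overlap, and neither was called (edgeR adjusted p = 0.13 and 0.339). In BALB/c they were at -0.06 ± 0.21 and -0.13 ± 0.28, and the test of strain by drink at 12 h gave an adjusted p of 1 for both. BALB/c water 12 h replicate 1 was the highest water library of that group for both, at 66.6 CPM of Pgd and 7.91 of G6pdx. The others lay between 35.1 and 56.55 CPM for Pgd and between 2.52 and 6.48 for G6pdx. By group mean CPM the BALB/c glucose libraries lay above the water libraries once that library was left out, so the signs in BALB/c rest on it. Rpia was at -0.06 ± 0.23 in C57BL6/J. Its BALB/c glucose libraries stood at 8.35, 7.42, 11.8 and 7.45 CPM, above all water libraries of that strain, the highest at 7.16 CPM. The test of strain by drink at 12 h did not call Rpia either. Group means of Rpia over the 8 groups at 12 h were 5.07 to 8.75 CPM, against 8.10 to 21.3 at 3 h, and those of H6pd were 316 to 465 CPM, against 160 to 248 at 3 h. These are ranges of group means and were not tested across drinks.

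**Figure D4:**
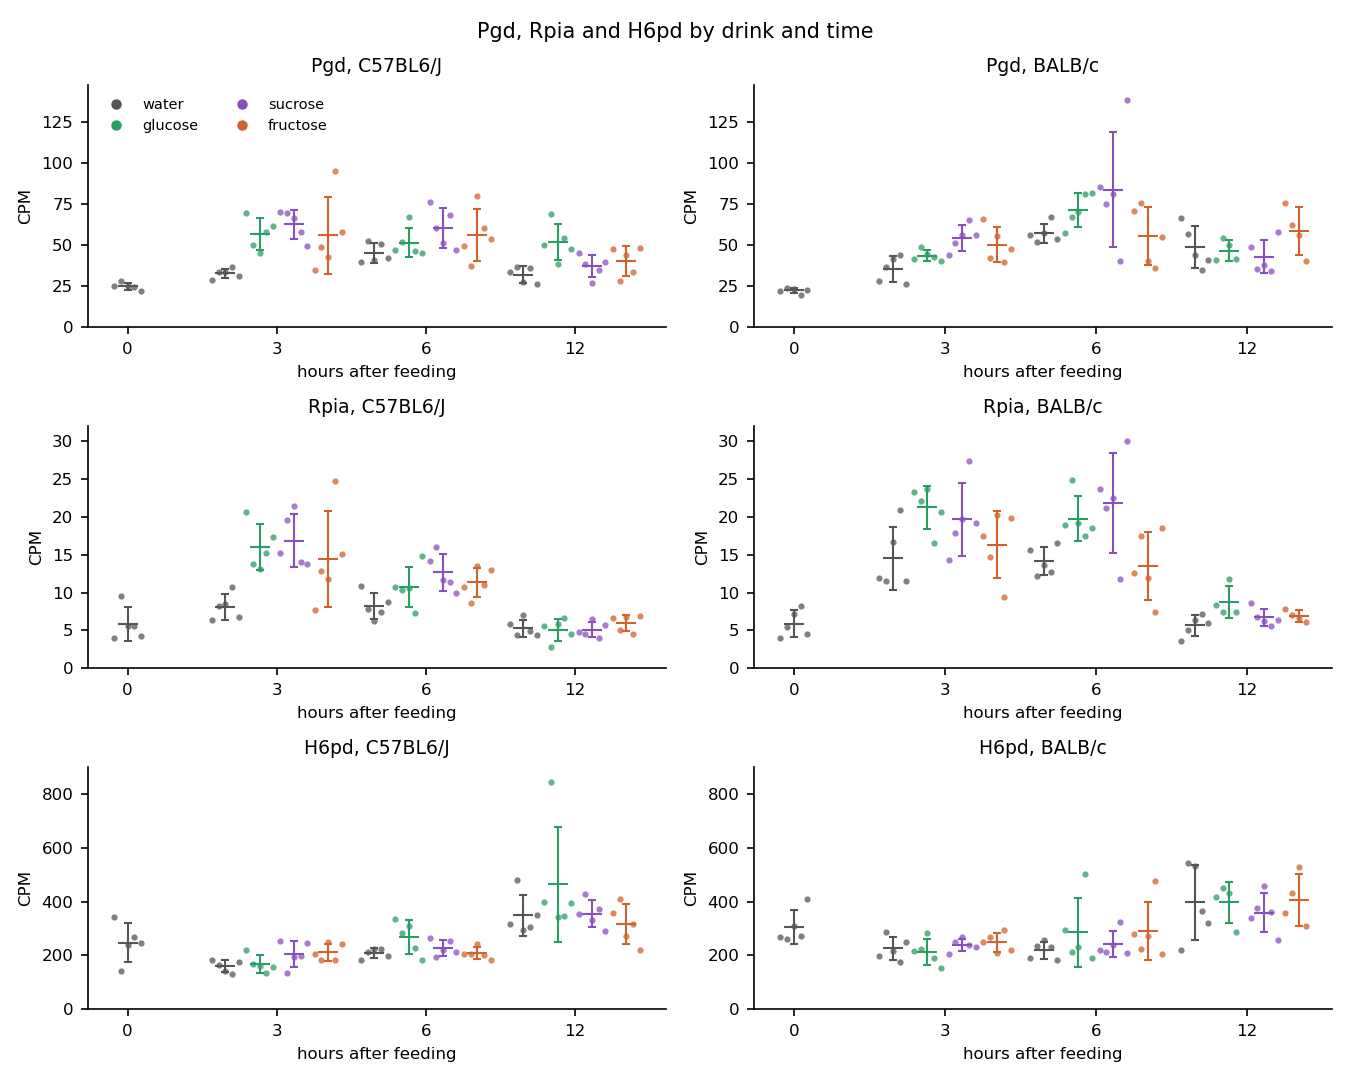
CPM of Pgd, Rpia and H6pd (rows) in C57BL6/J and BALB/c (columns) at 0, 3, 6 and 12 h by drink, one point per library with the group mean and SD (n = 5, or 4 for BALB/c on glucose and fructose at 12 h). Pgd and Rpia on sugars stand above water at 3 h, Rpia is low at 12 h on every drink, and H6pd is high there.

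The sugars were compared with each other at the same percentage and time, in 9 pairs for 8 genes. Glucose and fructose are single sugars, and sucrose is a disaccharide that holds 1 of each. By edgeR and by DESeq2 0 of 72 differences were called, and 7 of 72 had an unadjusted p under 0.05. All log2 differences lay between -0.42 and 0.37, with 95% intervals that together ran from -0.78 to 0.74. The largest was Rpia on fructose against sucrose at 6 h, at -0.42 ± 0.16 (edgeR adjusted p = 1, interval -0.73 to -0.11, lower in 8 of 10 libraries), and Pgd in that pair was at -0.35 ± 0.14 (adjusted p = 1, interval -0.63 to -0.08, 9 of 10). At 3 h Pgd on sucrose against glucose was at 0.23 (interval -0.04 to 0.51), and Rpia on fructose against glucose at -0.26 (interval -0.57 to 0.05, 9 of 10 libraries). These intervals do not show that the sugars act alike. Over all genes sucrose against glucose called 0.213%, 0.0118% and 0.00592% at 3, 6 and 12 h, and fructose against glucose 2.35%, 0.255% and 0%. Fructose against sucrose called 0%, 0% and 0% by edgeR, with 511, 402 and 243 genes at an unadjusted p under 0.05 and 7, 2 and 12 genes by DESeq2. For fructose against glucose at 12 h these were 406 and 17.

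Between strains, averaged over the 13 conditions they share, 4 of 8 genes were called, where 55.3% of all genes were called. Rpia was higher in BALB/c by 0.45 ± 0.06 (edgeR adjusted p = 5.19e-10) and in 13 of 13 conditions, a 1.37-fold difference. H6pd was higher by 0.20 ± 0.06 (0.00165, 12 of 13) and Tkt lower, at -0.23 ± 0.05 (1.05e-05, 10 of 13). Pgd was higher by 0.13 ± 0.06 (0.0369) but in 7 of 13 conditions, and was not called by DESeq2 (0.0516), over the libraries without the name suffix (0.226) or without replicate 1, 2, 3 or 5 of every group. The other 3 calls were kept over the libraries without the name suffix (0.40, 0.23 and -0.25). Marker sums of other tissues also differed between the strains, with medians in C57BL6/J and BALB/c of 27 and 104 CPM for skeletal muscle, 22.1 and 12.9 for cholangiocytes, and 3.13 and 0.175 for exocrine pancreas, and their part in these differences was not tested.

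Point values of the responses differed between strains, but no difference of response passed the test. On water Rpia rose at 3 h by 1.31 ± 0.23 in BALB/c (edgeR adjusted p = 4.17e-06), while in C57BL6/J it was at 0.48 ± 0.23 (0.176), a value that includes the 0 h library lying nearest to 3 h. The test of strain by feeding time gave an adjusted p of 0.311 for Rpia and 0.522 for Pgd, with 0 of 8 genes and 0.634% of all genes called. With sugar at 3 h the point values ran the other way. Rpia was at 0.98, 1.06 and 0.84 on glucose, sucrose and fructose in C57BL6/J (edgeR adjusted p = 0.0131, 0.00246 and 0.0151) and at 0.55, 0.44 and 0.17 in BALB/c (1, 1 and 0.954). Pgd was at 0.80, 0.94 and 0.78 in C57BL6/J (0.0282, 0.00204 and 0.00856) and at 0.31, 0.63 and 0.51 in BALB/c (1, 0.388 and 0.425). The BALB/c fructose group at 3 h includes replicate 4, a library far from its own time by time-dependent genes. It held 9.42 CPM of Rpia, against 14.7 to 20.3 in the others. Water levels of Rpia at 3 h were 8.10 ± 1.71 CPM in C57BL6/J and 14.5 ± 4.2 in BALB/c (SD, n = 5), and levels on glucose 16.0 ± 3.0 and 21.3 ± 2.8. The test of strain by drink called 0 of 24 at 3, 6 and 12 h, with 0.0474%, 0.178% and 0% of all genes called. At 12 h edgeR called 0 genes, with 333 at an unadjusted p under 0.05, and DESeq2 called 0. Among these tests edgeR's unadjusted p was under 0.05 for Rpia (0.0121) and Pgd (0.046) with feeding time and for Pgd with drink at 12 h (0.0391).

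Expressed as branch means of log2 CPM, the oxidative minus the non-oxidative value was 0.05 ± 0.25 (SD, n = 5) in C57BL6/J and 0.31 ± 0.40 in BALB/c before the meal. On water it stood at -0.11 ± 0.26, -0.01 ± 0.16 and 0.27 ± 0.08 after 3, 6 and 12 h in C57BL6/J. In BALB/c it stood at -0.15 ± 0.10, -0.14 ± 0.18 and 0.49 ± 0.42 at those times. Before the meal it was largest, at 1.00, in BALB/c replicate 1, the library low in Rpe, Tkt and Taldo1, and at 12 h in BALB/c replicate 1, at 1.12. Without H6pd the same difference was -0.83 ± 0.14 and -0.66 ± 0.41 at 0 h and -0.73 ± 0.12 and -0.48 ± 0.57 at 12 h, with means of every group between -0.99 and -0.44. From 0 to 6 h on water the difference with H6pd moved by -0.26, or by -0.18 without BALB/c water 0 h replicate 1. Without H6pd the strains went apart, from -0.83 to -0.73 in C57BL6/J and from -0.66 to -0.87 in BALB/c, where replicate 1 stood at 0.03 at 0 h. These differences were not tested, and the genes most often called, Pgd and Rpia, stood 1 in each branch.

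**Figure D5:**
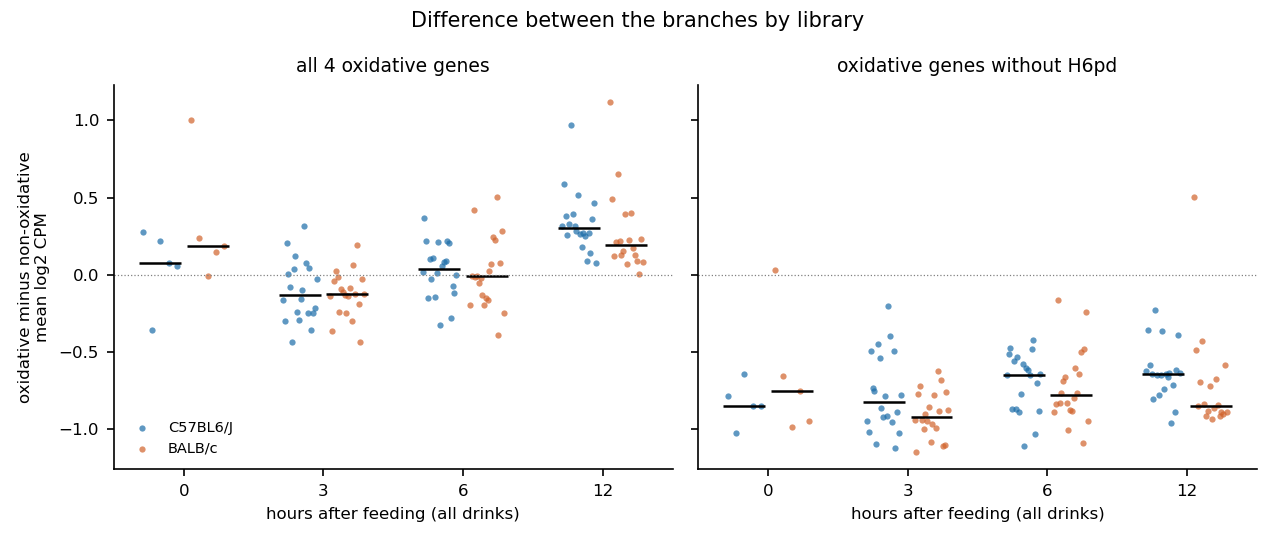
Mean log2 CPM of the oxidative genes minus that of the non-oxidative genes in each library, by hours after feeding over all drinks, with strain medians as black lines. With all 4 oxidative genes (left) the median is lowest at 3 h. It is highest at 12 h in C57BL6/J, while in BALB/c the medians at 0 h and 12 h lie close. Points at 0 h are from water only. Without H6pd (right) the difference stays below 0 in all but 2 libraries.

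Genes next to the pathway were counted from lists that hold no member. For comparison with all lists below, 25.4% of all genes tested were called at 3 h and 28.8% at 6 h on water. With sugar at 3 h the shares were 0.190% on glucose, 2.92% on sucrose and 6.71% on fructose, and 1.14% on sucrose at 6 h. Of 18 genes for relatives of these enzymes and for pentose and ribose metabolism, 15 were tested, and 2 were higher and 4 lower at 6 h on water (median log2 fold change -0.03). Prpsap2, a regulatory partner of the enzymes that make phosphoribosyl pyrophosphate from ribose-5-phosphate, had the smallest p, at 0.71 ± 0.11 (edgeR adjusted p = 1.65e-07). At 3 h it was Tigar (listed as 9630033F20Rik), whose product lowers a bisphosphate activator of glycolysis and so favours the pathway, at 0.70 ± 0.11 (2.17e-07), with 2 of the 15 higher and 2 lower. The G6pdx and Tkt relatives G6pd2 and Tktl2 were at 0 mean CPM and were not tested. Among 6 other producers of NADPH, 1 was higher at 6 h on water, Idh1 (cytosolic isocitrate dehydrogenase) at 0.47 ± 0.16 (0.023). Me1 (malic enzyme) was the 1 called with sucrose at 3 h, at 0.78 ± 0.20 (0.0144), and again at 6 h, at 0.83 ± 0.20 (0.0183).

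Fatty acid synthesis is a main use of NADPH in fed liver. Of 8 genes of fatty acid synthesis and desaturation, 6 were higher at 6 h on water (median 1.14), led by Fasn (fatty acid synthase) at 2.37 ± 0.32 (edgeR adjusted p = 2.3e-09). With sugar at 3 h 2 of 8 were higher on glucose, 4 on sucrose and 3 on fructose, with medians of 0.79, 1.00 and 0.59. Other targets of NRF2, the factor of the oxidative stress response that is known to raise pathway genes, were higher in 4 of 8 cases at 6 h on water (median 0.20), led by Srxn1 at 0.80 ± 0.14 (2.59e-06). None of those 8 was higher with a sugar at 3 h, where edgeR called 0, 0 and 1 on glucose, sucrose and fructose, the 1 being Srxn1, lower at -0.46 ± 0.14 (0.0279). In the list of ChREBP, the sugar-sensing factor of liver, 1 of 7 was higher on glucose at 3 h, 4 on sucrose and 4 on fructose (medians 0.43, 0.96 and 1.04), and on water at 6 h 1 was higher and 1 lower, Txnip at -1.86 ± 0.28 (5.28e-08).

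The 8 genes differed in how much of their variation the groups held. Between-group differences took 83.1% of the variance of log2 CPM for Rpia, 69.7% for Pgd, 63.2% for H6pd, 42.9% for Tkt, 37.5% for G6pdx, 25.5% for Taldo1, 17.6% for Pgls and 17% for Rpe. Rpia ranged 10.89-fold between the lowest and highest library and Taldo1 3.757-fold. The group mean of Pgd was highest in BALB/c on sucrose at 6 h, at 83.8 ± 35.2 CPM (SD, n = 5), and lowest in BALB/c on water at 0 h, at 22.4 ± 1.7. That 0 h group, which includes the replicate 1 low in Rpe, Tkt and Taldo1, also held the lowest group means of G6pdx, Rpe and Tkt. By mean log2 CPM it was the lowest for Taldo1 too. Across the 26 group means, which share libraries and depth between genes, Pgd correlated with G6pdx (Pearson r = 0.68), Rpia (0.64) and Tkt (0.58), while H6pd ran against Rpia (-0.62) and Pgls (-0.58). These are descriptions over groups, with no test.

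Genes with the closest patterns over the same 26 group means were sought among 9051 or 9052 named genes. For Pgd they included Cs (citrate synthase, r = 0.91) and Pdia6 (0.88), for G6pdx Acacb (0.78), Ick (0.77) and Dnajc3 (0.76), for H6pd Ncoa2 (0.96), Serpinf2 (0.94) and Abca8b (0.94), and for Pgls Rps15 and Fau, which encode ribosomal proteins (0.94 and 0.93), and Ttc36 (0.93). For Rpia they were Pelo (0.95), Gpr137b-ps (0.94) and Dapk2 (0.94), for Rpe Sec14l2 (0.88) and Cyb5b (0.85) among others, for Tkt Col27a1 (0.87), Srp9 (0.87) and Stx3 (0.86), and for Taldo1 Bst2 (0.87), Alkbh7 (0.86) and Trappc1 (0.86). None of the 8 had another of the 8 among its closest 3.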

How the data were processed

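Liver RNA of male mice was sequenced after library preparation with a NEBNext kit, per the labels' protocols. The authors deposited read counts per gene, without normalization, and FPKM values, which equalled the depth-scaled counts per kilobase within 0.01%. Per the submitters' processing notes, which assign no roles, the tools were CASAVA, STAR 2.5, HTSeq 0.6.1 and DESeq2 and the build was mm10 (GRCm38). Coordinates are those of the deposited table.

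The test of these counts was that of edgeR (version 4.0.16, R version 4.3.3): filterByExpr over 26 groups (16886 genes left), TMM scaling, 1 mean per group, robust quasi-likelihood tests of contrasts that average both strains, and Benjamini-Hochberg adjustment over all genes of a contrast at 0.05. Errors after ± of a log2 fold change are standard errors, and intervals are at the 95% level. A count of libraries in a direction sets each library against the control mean of its own strain, and for strain a count of conditions. CPM used TMM-scaled library sizes, with a prior count of 1 for log2. Levels between genes were compared in FPKM only. The procedure was tested on simulated data.

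Named genes were the 8 members, the gene with the smallest p in each list and contrast, and the 3 genes with the highest r among those with a mean of at least 5 CPM and a symbol that is not a clone name. Some of these genes are not reported here. Of 129 list entries 127 were used, since 1 was not matched and 1 repeated another. Members and lists were chosen with earlier results of these data known. Alternatives were DESeq2 1.42.0, RLE scaling, no filter, a term for the name suffix or for the replicate number, subsets of libraries, and leaving out each replicate number. No libraries agreed within sampling noise. The sequences are from RefSeq (GRCm38.p6), whose promoter table matched 8 of 8 genes.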

Additional observations from a re-analysis of the deposited data

Results flagged for a closer look

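In 10 of 208 combinations of a gene and a group, 1 library stood apart from the other libraries of its group by Dixon's ratio at the 95% level, and chance flags about 1 in 20 groups. In C57BL6/J on glucose at 6 h, replicate 3 had 12 CPM of G6pdx against 4.17 to 5.58 in the others. H6pd stood apart in 3 groups. It was at 475 CPM in BALB/c fructose 6 h replicate 4 (others 206 to 280), nearest to 12 h by a small margin in its time-dependent genes. It was at 325 CPM in BALB/c sucrose 6 h replicate 4 (210 to 239), and at 845 CPM in C57BL6/J glucose 12 h replicate 2 (341 to 397). C57BL6/J sucrose 12 h replicate 3 stood apart for Pgls at 122 CPM (66 to 82.2) and for Taldo1 at 148 CPM (129 to 132). Rpia was at 24.9 CPM in BALB/c glucose 6 h replicate 2 (17.4 to 19.2). Tkt was at 221 CPM in C57BL6/J sucrose 3 h replicate 3 (158 to 169) and at 151 CPM in C57BL6/J water 6 h replicate 1, below the others (175 to 184). Taldo1 was at 195 CPM in BALB/c fructose 3 h replicate 4 (126 to 139).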

How the results depend on the processing

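Of 14 alternatives, those that moved a count of called genes by over 1.5 times are given first, and their causes were not tested. At 3 h on water the count was 3, and 5 without the 2 libraries at odds with their labels. At 6 h it was 6, and 3 over the libraries without the name suffix, with 3 to 6 when 1 replicate number was left out. At 12 h it was 2, and 1 over the libraries without the name suffix, in a fit of only the contrast's libraries, and without the 2 libraries at odds with their labels, with 1 to 2 when 1 replicate number was left out. From 6 to 12 h it was 4, 2 with no filter (26580 genes), and 2 to 4 when 1 replicate number was left out. With sugars at 3 h it was 5, 3 over the libraries without the name suffix, and 3 to 6 when 1 replicate number was left out. With sugars at 6 h it was 2, 1 with no filter, 1 in a fit of only the contrast's libraries, 0 over the libraries without the name suffix, and 0 to 2 when 1 replicate number was left out. Rpia at 12 h against 0 h changed sign, from -0.10 to 0.09 over the libraries without the name suffix, and ran from -0.15 to 0.086 when 1 replicate number was left out. Taldo1 over G6pdx was 61.46 in FPKM and 28.48 in CPM, which leaves out gene length. Smaller shifts also changed single calls. H6pd at 6 h was called by DESeq2, with RLE scaling, with the name suffix as a term (adjusted p = 0.0427 by edgeR) and in a fit of only the contrast's libraries (0.0398). The last fit did not call Tkt (0.126) or Taldo1 (0.088) at 6 h or Rpia on fructose at 3 h (0.124). With the name suffix as a term Rpe was called at 3 h (0.0395) and from 6 to 12 h (0.0164). Pgd was called on glucose at 3 h by DESeq2, and between strains it was not called by DESeq2 or with RLE scaling (0.053). Same-numbered libraries deviated together more often than others (mean r = 0.076 against -0.019, over 0.1 in 45.3% against 19.4% of pairs), and 85 libraries correlated best with their own number. This is a hint from the data and not the design, and since r ran down to -0.427 the numbers were not taken as pairs. With a replicate block H6pd was called at 6 h (-0.38, adjusted p = 0.0347 by edgeR), which made 7 genes, and no other call of the 8 genes in the combined-strain comparisons changed. Over all genes, DESeq2 moved the count called by over 1.5 times, in either direction, in 15 of 27 comparisons. Among them it called more for glucose against water at 3, 6 and 12 h (59, 270 and 65 against 32, 153 and 11) and for sucrose against water at 6 h (329 against 193). With no filter 6 moved (63 against 153 for glucose at 6 h). Leaving out 1 replicate number gave 2 to 37 genes for glucose at 3 h, 160 to 336 for sucrose (493 with all) and 640 to 853 for fructose (1133 with all). The lowest counts, those of G6pdx, limit what could be detected for it.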
